A study of Mus musculus with 46 samples.

Results

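The genes examined here were 8 markers of B cells and plasma cells, Cd79a, Cd79b, Ms4a1, Pax5, Ighm, Igkc, Jchain and Mzb1, chosen by name from the 48795 genes of the deposited table. Each was followed in all 46 samples. Levels are given in FPKM, a fragment count scaled by transcript length and library size, and differences are between group means of log2(FPKM + 0.1). Bulk RNA was sequenced from subcutaneous tumors of MC-38, a mouse colon carcinoma line, and from the cultured line. The study asked how PD-1 Ab treatment and induced deletion of Pdcd1, the gene for PD-1, altered the tumor. The mice were adult females of the C57BL/6NTac background.

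The groups were 3 cultures of MC-38 cells, 3 untreated baseline tumors and 4 groups of 5 tumors from WT mice. These 20 WT mice received isotype control or the PD-1 antibody muDX400 at 5 mg/kg, and their tumors carry a time label of 4 days with 1 dose or 8 days with 2 doses, counted from the first dose. A separate tamoxifen study held 10 tumors labelled PD-1cKO and 10 from WT littermates, all labelled 28 days. PD-1cKO mice carried loxP-flanked Pdcd1 exons and a tamoxifen-inducible cre in the ROSA26 locus, which is active in most cell types, so the deletion was not limited to T cells. Both groups received tamoxifen at 40 mg/kg on 5 consecutive days. Each tumor came from its own mouse, and the cultures were samples of the same line.

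Whole-series checks bear on every value below. Implied depth was 8210000 to 30400000 fragments in baseline and antibody-study tumors, 21200000 to 27500000 in cultures and 20700000 to 55100000 in the tamoxifen study. The value of 30400000 was that of isotype replicate 1 after 1 dose, where 63.2% of low values lay near whole fragments, the lowest share of any library. All other baseline and antibody-study tumors had lower implied depth than every tamoxifen-study tumor. Isotype replicate 1 after 1 dose stood apart, with 54.6% of its FPKM in mitochondrial genes against 3.45% in the lowest tumor of that group. Short noncoding RNAs held 30.2% to 66.5% of the FPKM in tamoxifen-study tumors and at most 0.0746% in the other samples, so levels in the 2 studies are not on equal footing. Pdcd1 was 1.71 to 7.02 FPKM in WT tumors and 5.05 to 19.95 FPKM in tumors labelled PD-1cKO. This value also counts reads outside the deleted exons and does not check the label. Epithelial markers of a colon carcinoma were near absent in culture, where 6 of them summed to 0.591 to 0.781 FPKM.

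B cells bind antigen through a membrane immunoglobulin that signals through the paired chains CD79A and CD79B. Mature B cells also carry CD20, the product of Ms4a1, and depend on the transcription factor Pax5. Cells that become plasma cells switch off Pax5 and much of the surface set and devote their transcription to secreted immunoglobulin. Ighm encodes the constant part of the IgM heavy chain and Igkc that of the kappa light chain. Jchain joins immunoglobulin units into polymers, and Mzb1 is an endoplasmic reticulum protein that helps their assembly and is also found in plasmacytoid dendritic cells. In bulk tumors, fewer cells of a type and less RNA per cell cannot be told apart.

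Levels differed widely among the 8 genes. The receptor chains, Ms4a1 and Pax5 were low in all groups, with group medians of at most 0.605 FPKM for Cd79a, 2.34 FPKM for Cd79b, 0.0875 FPKM for Ms4a1 and 0.295 FPKM for Pax5. The immunoglobulin chains reached higher levels, with their highest group medians in WT tumors, 76.0 FPKM for Ighm and 46.8 FPKM for Igkc. Jchain had its highest median, 8.54 FPKM, in the same group, and Mzb1 its own at 0.647 FPKM. The order of medians for Igkc ran from culture at 0 through baseline, isotype after 1 dose, isotype after 2 doses, PD-1 Ab after 1 dose, PD-1cKO and PD-1 Ab after 2 doses to WT. The ranges of baseline and isotype 1-dose tumors overlapped, as did those of all later neighbors in that order.

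**Figure D1:**
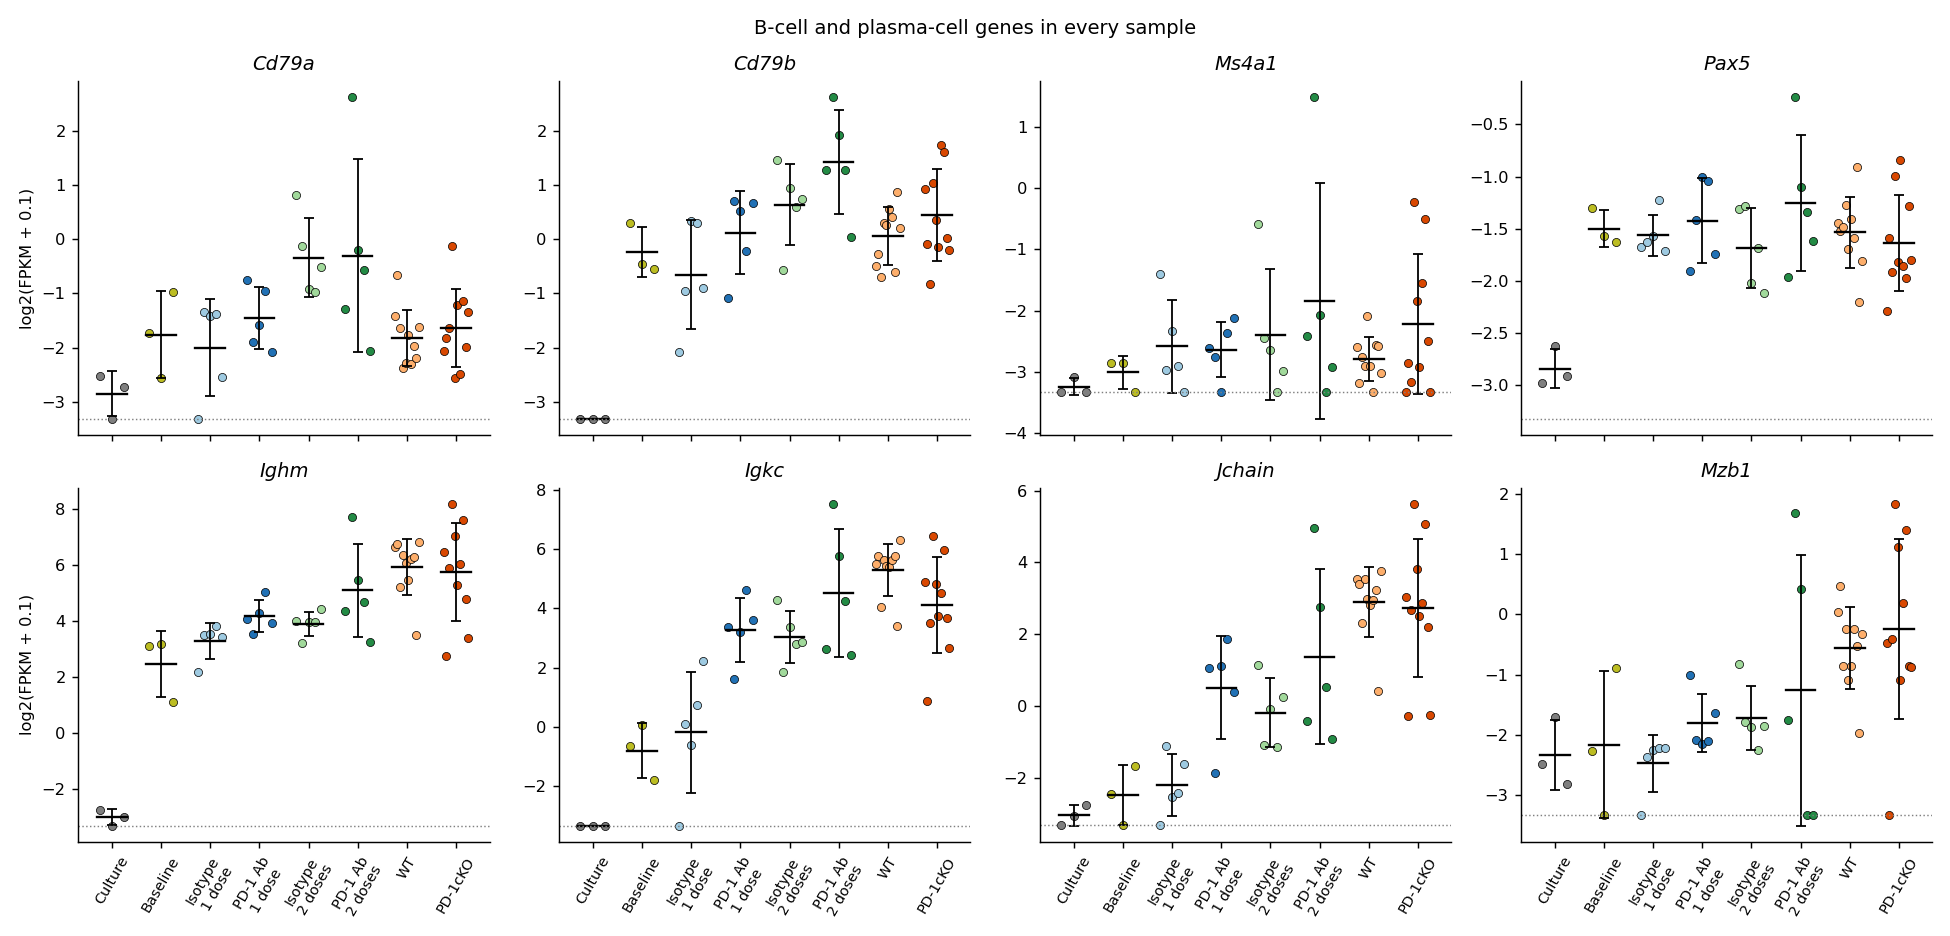
Level of each of the 8 genes in all 46 samples, as log2(FPKM + 0.1), with a point per sample, a bar at the group mean and whiskers of 1 SD; the dotted line is a value of 0 FPKM. Cultures sit at or near that line for Cd79b, Ighm, Igkc and Jchain, and replicate 2 of the PD-1 Ab 2-dose tumors is the highest of all 46 samples for Cd79a, Cd79b, Ms4a1, Pax5 and Igkc.

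Over the 43 tumors, the secretory genes moved together from tumor to tumor, and the surface genes less so. There, Pearson's r on the log2 scale was 0.92 for Ighm with Jchain, 0.91 for Igkc with Jchain and 0.88 for Ighm with Igkc. Within the 20 tamoxifen-study tumors, Ighm and Jchain had r of 0.98. Cd79a and Cd79b, whose proteins form a dimer, had r of 0.68 in the 20 antibody-study tumors and -0.10 in the 20 tamoxifen-study tumors. With Ighm, Igkc, Jchain and Mzb1, Cd79a had r of 0.73 to 0.80 in the antibody study and 0.18 to 0.36 in the tamoxifen study. These are descriptions, since tumors of a study share a protocol and span several groups, and Cd79a was low enough in the tamoxifen study that 3 to 39 implied fragments carried its value. Cd79a and Igkc each have 1 annotated transcript, of 1457 and 532 bases, so their FPKM values convert to implied whole fragments.

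**Figure D2:**
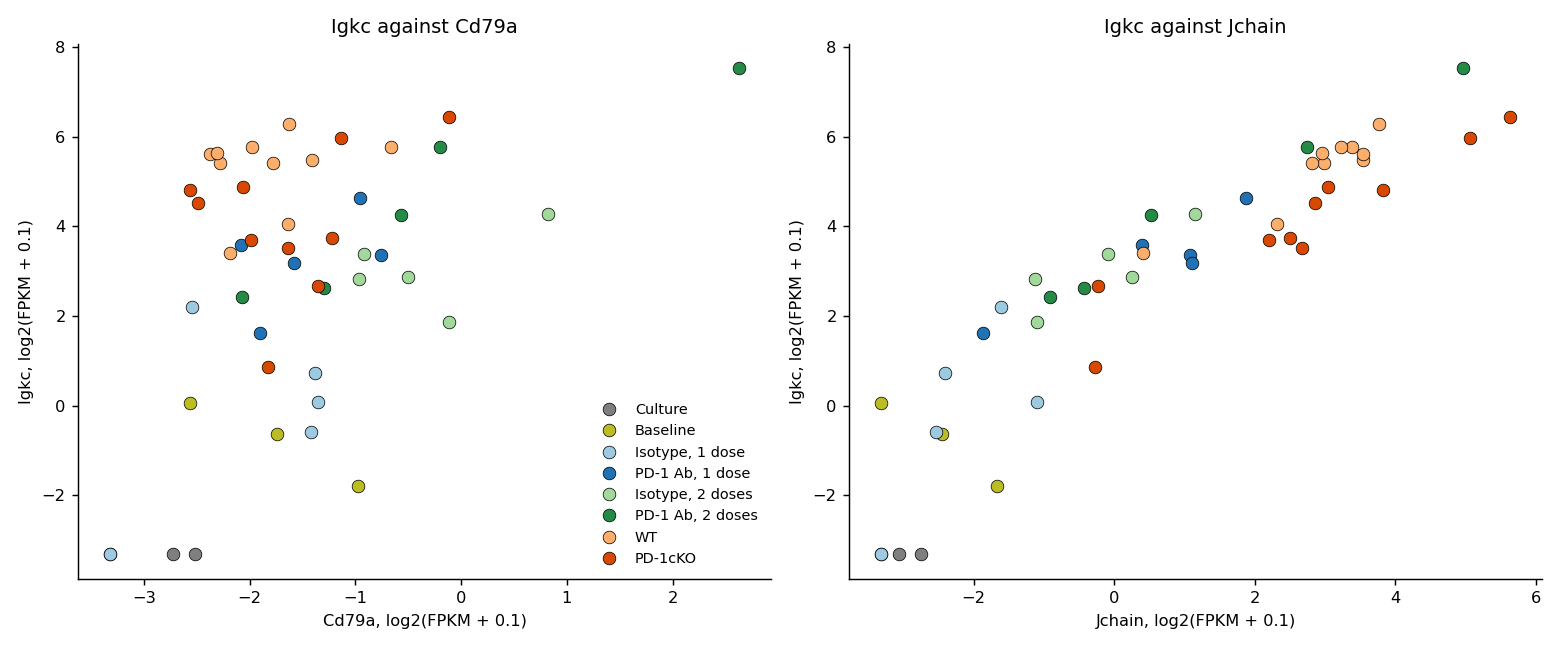
Igkc level against Cd79a (left) and against Jchain (right), both axes as log2(FPKM + 0.1), with a point per sample colored by group. Igkc and Jchain rise along a single band with r of 0.91 over the 43 tumors, whereas WT tumors lie at high Igkc and mostly at lower Cd79a (0.0923 to 0.531 FPKM) than the isotype 2-dose tumors (0.411 to 1.66 FPKM).

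All 8 genes had higher mean levels in isotype 2-dose tumors than in the cultured line, and 5 of them met the rule for a call. Isotype tumors after 2 doses were compared with MC-38 cultures to separate host from carcinoma transcripts. Igkc was listed at 0 in all 3 cultures, and was 19.3, 3.54, 10.3, 6.94 and 7.23 FPKM in the isotype tumors, or 123, 22, 70, 37 and 48 implied fragments. Ighm was 0.0484, 0 and 0.0251 FPKM in cultures and 9.22 to 21.3 FPKM in the tumors. Of the 8 genes, 5 passed the filter of a mean of 0.5 FPKM in either group, and all 5 were higher in tumors at an adjusted p under 0.01 and at least 2-fold (limma, Benjamini-Hochberg over all genes). Across all genes tested, 14.2% were higher by this rule and 21.3% were called in either direction. The differences were 6.93 ± 0.26 (SE) for Ighm (adjusted p = 4.11e-08), 6.36 ± 0.45 for Igkc (adjusted p = 3.09e-06) and 3.96 ± 0.41 for Cd79b (adjusted p = 4.69e-05). Those of Jchain and Cd79a were 2.86 ± 0.52 (adjusted p = 0.00162) and 2.52 ± 0.44 (adjusted p = 0.00129). Ms4a1, at 0.148 ± 0.237 (SD) against 0.00610 ± 0.0106 FPKM, and Mzb1, at 0.222 ± 0.137 against 0.110 ± 0.0871 FPKM, missed the filter and their groups overlapped (differences 0.85 and 0.61). Pax5 also missed the filter, at 0.220 ± 0.0845 against 0.0406 ± 0.0187 FPKM, but its groups did not overlap (difference 1.15). Cultures and isotype tumors came from different identifier runs, so tissue and run cannot be told apart. A run here is a stretch of nearby sample identifier numbers, and the labels do not say what it stands for. Where a group is at 0, the size of the difference depends on the 0.1 FPKM added. Cd79a was not at 0 in culture, where 3, 0 and 2 implied fragments carried values of up to 0.0744 FPKM. The groups did not overlap for 6 of the 8 genes, where 59.3% of all genes tested did not overlap, and the exact permutation p of each was 0.0357, the smallest that 5 against 3 samples allow.

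Baseline tumors held little kappa chain. Untreated tumors were compared here with isotype controls that were followed for longer. Igkc was 0.546, 0.939 and 0.187 FPKM in baseline tumors, or 3, 5 and 1 implied fragments, all below the 3.54 to 19.3 FPKM of the isotype 2-dose tumors. The difference, baseline minus isotype, was -3.83 ± 0.54 on the log2 scale (limma adjusted p = 0.00781), and was the only call among 5 genes tested, against 0.167% of all genes called lower and 0.595% called in either direction. Jchain was 0.0828, 0 and 0.214 FPKM at baseline and 0.358 to 2.12 FPKM in the isotype tumors (difference -2.30 ± 0.61, adjusted p = 0.0814). Ighm was 8.41, 8.996 and 2.03 FPKM against 9.22 to 21.3 FPKM (-1.45 ± 0.45, adjusted p = 0.132), and Cd79a was 0.200, 0.0686 and 0.410 against 0.411 to 1.66 FPKM (-1.42 ± 0.52, adjusted p = 0.190). For these 4 genes the groups did not overlap, as was so for 14.8% of all genes tested, and each had an exact permutation p of 0.0357. The call for Igkc was lost in 6 of 8 fits that left out a tumor, in which the difference ranged from -4.26 to -3.33. Baseline and isotype tumors came from different identifier runs, so group and run cannot be told apart. Skeletal muscle markers, summed over 6 genes, were 1.48 to 125 FPKM at baseline and 0.491 to 1.15 FPKM in isotype tumors, and adipose markers 4.80 to 146 and 15.6 to 131 FPKM. Their part in the difference was not tested.

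The Igkc constant exon, the member with the clearest difference between tumor groups, lies on chromosome 6 at chr6:70726435-70726966 (GRCm38, plus strand). It is a single exon with 320 coding bases, of which the last part before the stop codon is shown 5′ to 3′ from the GENCODE transcript, with the last cysteine codon, which bonds the light chain to the heavy chain, in capitals.
Igkc: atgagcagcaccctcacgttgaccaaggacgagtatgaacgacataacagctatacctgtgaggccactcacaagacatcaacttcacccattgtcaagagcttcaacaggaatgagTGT

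After 1 dose, the immunoglobulin genes were higher in most PD-1 Ab-treated tumors than in isotype controls, but no gene of the 8 passed the test. Igkc was 0, 0.961, 0.564, 1.56 and 4.53 FPKM in isotype controls and 10.2, 2.97, 9.02, 24.7 and 11.98 FPKM in PD-1 Ab-treated tumors. In implied fragments these were 0, 6, 3, 8 and 23 against 61, 13, 42, 108 and 64. Of the treated tumors, 4 of 5 lay above every isotype control, and the difference was 3.46 ± 0.86 (limma adjusted p = 0.276, exact permutation p = 0.0159). Jchain was 0, 0.367, 0.0718, 0.0884 and 0.226 FPKM in isotype controls and 2.003, 0.175, 2.05, 3.56 and 1.22 FPKM after PD-1 Ab. It differed by 2.71 ± 0.68 (adjusted p = 0.276, exact permutation p = 0.0238), again with 4 of 5 treated tumors above all controls. Ighm was 4.45 to 14.2 FPKM against 11.5 to 33.2 FPKM (0.88 ± 0.35, adjusted p = 0.717). Mzb1 missed the filter, at 0 to 0.116 FPKM in isotype controls and 0.126 to 0.395 FPKM after PD-1 Ab. It was the only gene of the 8 whose groups did not overlap. Its exact permutation p was 0.00794, the smallest that 5 against 5 tumors allow. Of all genes tested, a set that leaves out Mzb1, 3.65% did not overlap. Few fragments carried the Mzb1 values. Treated replicates 2, 3 and 4, at 0.1263 to 0.1345 FPKM, had lower implied depth than each of isotype replicates 2 to 5, at 0.0942 to 0.116 FPKM. Treated replicates 1 and 5, at 0.395 and 0.220 FPKM, did not. Depth and level cannot be told apart at such values, so no conclusion is drawn from the separation.

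By the rule of an adjusted p under 0.01 and 2-fold, 0 of the 4 genes tested were called, against 0.0% of all 14556 genes, and at an adjusted p under 0.05 the counts were 0 genes of the 4 and 0.00687% of all genes. At an unadjusted p under 0.05, 3 of the 4 passed, as did 895 of all genes. The surface genes showed smaller differences, 0.55 for Cd79a, 0.78 ± 0.53 for Cd79b (adjusted p = 0.825) and -0.05 for Ms4a1. The median difference of all genes was 0.26, and 0.01 after median-of-ratios scaling, under which Igkc differed by 3.45. Leaving out isotype replicate 1, the library rich in mitochondrial RNA, gave 2.67 for Igkc. By the sample identifiers, isotype replicates 1 to 3 formed a run of their own and the other 7 samples another. With that run as a term, the Igkc difference was 1.81. The T-cell markers, summed over 10 genes, were 25.4 to 74.6 FPKM after PD-1 Ab and 6.07 to 31.3 FPKM in controls. The part of either in the difference was not tested.

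After 2 doses, a single tumor dominated the B-cell and plasma-cell genes. Igkc was 6.07, 184, 54.7, 18.9 and 5.29 FPKM in PD-1 Ab-treated tumors against the 3.54 to 19.3 FPKM of isotype controls. Ighm was 20.3, 212, 43.9, 25.9 and 9.45 FPKM against 15.9, 9.22, 15.4, 15.4 and 21.3 FPKM. Replicate 2 was the highest treated tumor for all 8 genes, and replicate 3 was the next highest for all 8. Cd79a was 0.308, 6.10, 0.773, 0.575 and 0.138 FPKM after PD-1 Ab and 1.66, 0.823, 0.429, 0.411 and 0.605 FPKM in isotype controls, so 4 of 5 treated tumors lay within or below the control range. Replicate 2 held 105 implied Cd79a fragments and 1157 for Igkc, while replicate 5 held 2 and 28.

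None of the 7 genes tested was called after 2 doses, where 5.3% of all genes were called and 5.03% were called higher. At an unadjusted p under 0.05, 0 of the 7 passed, where at least the 5.3% of all genes called by the stricter rule did. Limma gave adjusted p from 0.187 to 0.974. The differences were 1.48 ± 0.86 for Igkc (adjusted p = 0.222), 1.56 ± 0.98 for Jchain (adjusted p = 0.256), 1.19 ± 0.64 for Ighm (adjusted p = 0.187) and 0.79 ± 0.47 for Cd79b (adjusted p = 0.227). For Cd79a the difference was 0.04 ± 0.74 (adjusted p = 0.974). Without replicate 2 of the PD-1 Ab-treated tumors, the difference was 0.73 for Igkc, 0.66 for Jchain, 0.53 for Ighm and -0.69 for Cd79a. No gene of the 8 had groups that did not overlap, as against 15.3% of all genes tested.

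The tumor with the high values carried other B-cell transcripts as well. Fcer2a and Cr2, receptors of resting B cells and follicular dendritic cells, were 0.906 and 0.504 FPKM there and at most 0.105 and 0.0367 FPKM in the other 4. Cxcl13, a chemokine that draws B cells into follicles, was 3.61 FPKM there and 0.175 to 1.06 FPKM in the others. Chst4, made in the high endothelial venules of lymph nodes, was 0 in all 10 tumors of the 2-dose comparison, and Glycam1, another gene of these venules, was 0.271 FPKM in that tumor and 0 to 0.3002 FPKM in the other treated tumors. The highest Glycam1 value of the comparison, 1.74 FPKM, was in isotype replicate 1, which also had the highest Ms4a1 (0.569 FPKM) and Igkc of its group. The part of lymphoid tissue in these values was not tested.

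**Figure D3:**
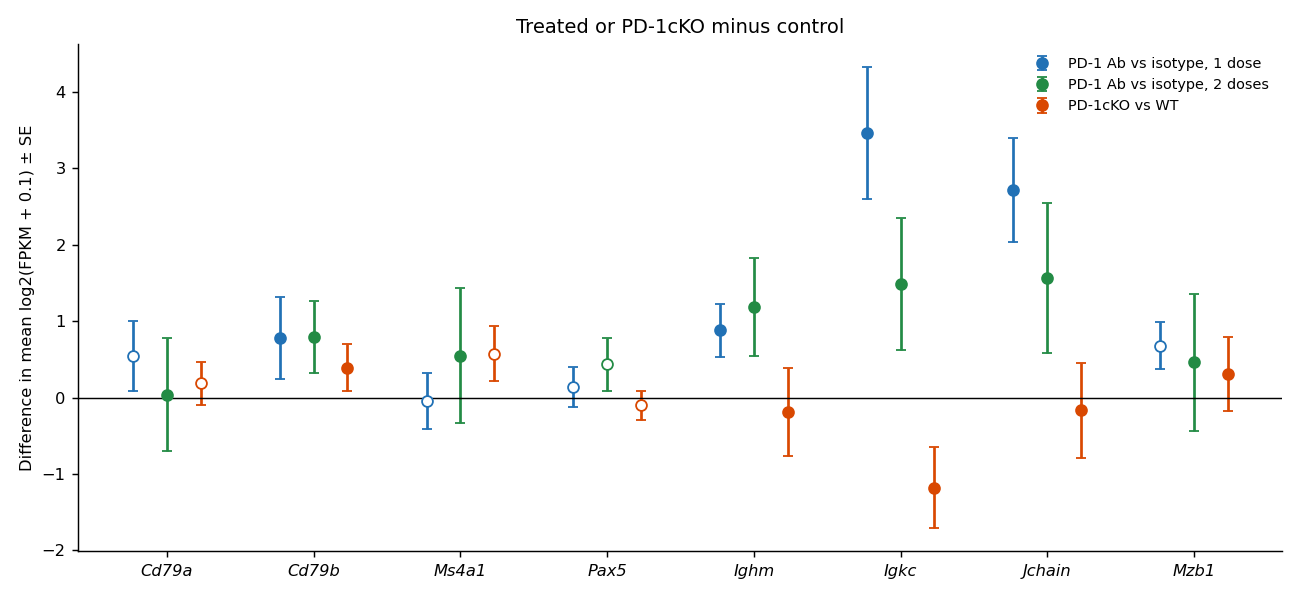
Difference in mean log2(FPKM + 0.1) with its SE for each of the 8 genes in 3 comparisons, PD-1 Ab minus isotype after 1 dose and after 2 doses and PD-1cKO minus WT. Filled points passed the filter on low values and open points did not, and 0 of the differences met the rule for a call; Igkc lies at 3.46 after 1 dose, 1.48 after 2 doses and -1.18 in PD-1cKO tumors.

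In the tamoxifen study, the immunoglobulin genes were high in both groups and spread widely among PD-1cKO tumors. Igkc ranged from 10.4 to 78.4 FPKM in WT tumors with a median of 46.8, and from 1.72 to 86.1 FPKM in tumors labelled PD-1cKO with a median of 18.0. All but 2 WT tumors lay between 42.3 and 78.4 FPKM, whereas 8 of 10 PD-1cKO tumors lay at 29.4 FPKM or lower. The difference was -1.18 ± 0.53 (limma adjusted p = 0.0736, permutation p = 0.0539 with 100000 resamples). Ighm had a median of 76.0 FPKM in WT tumors (11.3 to 115) and 62.7 FPKM in PD-1cKO tumors (6.60 to 294), with a difference of -0.19 ± 0.58 (adjusted p = 0.803). Jchain had medians of 8.54 FPKM (1.23 to 13.5) and 6.71 FPKM (0.729 to 49.6), with a difference of -0.17 ± 0.62 (adjusted p = 0.839). Their ranges in PD-1cKO tumors enclosed those in WT tumors.

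The surface genes were low in the tamoxifen study, and the groups overlapped for all of them. Cd79a had a median of 0.173 FPKM in WT tumors (0.0923 to 0.531) and 0.202 FPKM in PD-1cKO tumors (0.0690 to 0.823). Cd79b had medians of 1.08 and 1.05 FPKM, with 4 PD-1cKO tumors above every WT tumor (difference 0.39 ± 0.30, adjusted p = 0.294). Ms4a1 was at most 0.134 FPKM in WT tumors, and 4 PD-1cKO tumors lay above that, up to 0.756 FPKM. Pax5 had medians of 0.253 and 0.186 FPKM. PD-1cKO replicates 4 and 8 were the highest 2 of their group for Ms4a1, Ighm, Igkc, Jchain and Mzb1. They also had the highest shares of FPKM in short noncoding RNAs of that group, 64.0% and 66.5%. The median of this share was 54.0% in PD-1cKO and 45.3% in WT tumors. Its part in the values was not tested. Of the 8 genes, 5 were tested and 0 were called, against 8.07% of all genes, 4.2% higher and 3.87% lower. Of the 5, only Igkc passed an unadjusted p under 0.05 (limma). At least the 8.07% of all genes called by the stricter rule passed that limit too. No gene of the 8 had groups that did not overlap, against 0.949% of all genes.

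The Igkc value in the tamoxifen study depended on the fit and on whether runs of sample identifiers entered it. With array quality weights it was -1.92 and was called (limma adjusted p = 0.00282), and without PD-1cKO replicate 2 it was -0.82. By identifier, 7 PD-1cKO tumors formed a run with no WT tumor, so within-run values rest on 1 and 9 or on 2 and 1 tumors of the groups. With the run as a term, the Igkc difference was -0.87. The median difference of all genes was -0.20, and -0.04 after median-of-ratios scaling, under which 922 genes were called higher and 335 lower against 633 and 584. Igkc then differed by -1.02.

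The 2 responses were set against each other and values are given for the immunoglobulin chains and Jchain. The response to 2 doses minus the response to deletion was 2.66 ± 1.02 for Igkc (limma adjusted p = 0.224), 1.38 ± 0.99 for Ighm (adjusted p = 0.465) and 1.73 ± 1.19 for Jchain (adjusted p = 0.445). Of 7 genes tested, 0 were called, against 0.0914% of all genes. The response to 2 doses minus that to 1 dose was -1.98 ± 1.29 for Igkc (adjusted p = 0.627), -1.15 ± 1.24 for Jchain (adjusted p = 0.700) and 0.31 ± 0.77 for Ighm (adjusted p = 0.865). Here 0 of 7 were called, against 0.0% of all genes.

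Among isotype controls, values were higher after 2 doses than after 1 dose for 7 of the 8 genes. Cd79a was 0, 0.292, 0.274, 0.284 and 0.0719 FPKM after 1 dose and at least 0.411 FPKM after 2 doses, so the groups did not overlap, as was so for 4.36% of all genes tested. Its difference was 1.66 ± 0.54 (limma adjusted p = 0.610, exact permutation p = 0.00794), and that of Igkc was 3.22 ± 0.82 (adjusted p = 0.602, exact permutation p = 0.0159). The median difference of all genes was 0.29. Without 1-dose replicate 1, the library rich in mitochondrial RNA, the difference was 1.33 for Cd79a and 2.43 for Igkc. No gene of the 5 tested was called, against 0.0% of all genes, while 4 of the 5 and 996 of all 14445 genes passed an unadjusted p under 0.05. The 2 groups came from different identifier runs, so time and run cannot be told apart. The isotype 2-dose group also served as control in the comparisons with culture, baseline and PD-1 Ab, so those values are not independent.

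Ratios among the immunoglobulin genes and Cd79a are given as descriptions, and no difference in them was tested. The FPKM ratio of Igkc to Cd79a had a median of 2.74 in baseline tumors (0.456 to 13.7) and 11.9 in isotype tumors after 2 doses (4.30 to 24.0). After 1 dose it was 4.38 in the 4 isotype tumors with Cd79a above 0 (2.05 to 63.0) and 38.3 after PD-1 Ab (17.8 to 87.6). The ratio was 32.9 after 2 doses of PD-1 Ab (19.7 to 70.7), 286 in WT tumors (74.4 to 529) and 94.6 in PD-1cKO tumors (9.43 to 405). Ighm exceeded Igkc by a ratio of 9.58 to 15.4 in baseline tumors, against 2.33 to 20.6 in isotype tumors with Igkc above 0 after 1 dose and 0.824 to 2.94 after 2 doses. It was 1.05 to 2.23 in WT tumors (median 1.53) and 1.66 to 5.1995 in PD-1cKO tumors (median 3.08). Igkc had 1 to 5 implied fragments in the baseline tumors, so their ratios are imprecise. Of the heavy-chain constant FPKM, Ighm held a median of 94.7% at baseline, 77.8% in isotype tumors after 2 doses, 81.1% after 2 doses of PD-1 Ab, 81.4% in WT and 78.7% in PD-1cKO tumors. Class-switched chains (IgG, IgA and IgE) held 7.79% to 69.3% in WT and 3.28% to 54.8% in PD-1cKO tumors.

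Tumors also differed in how many variable genes of the immunoglobulin loci were read. Of 348 such genes, 60 to 118 were above 0 in WT tumors and 29 to 143 in PD-1cKO tumors, with summed medians of 122 and 91.5 FPKM. Isotype tumors after 2 doses had 11 to 41, and baseline tumors 1 to 5. A count of genes above 0 depends on depth, which was lower in every baseline and 2-dose tumor than in any tamoxifen-study tumor. These counts are therefore not compared between the studies. The high PD-1 Ab 2-dose tumor had 93 with a sum of 162 FPKM, and the highest of them held 13.1% of the sum. In the PD-1cKO comparison 97 were tested, of which 0 were called higher and 1 was called lower, against 4.2% and 3.87% of all genes. It was Ighv1-11, which is named here after its value was seen.

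The variable genes with the highest mean over the 43 tumors were Iglv1 (5.42 FPKM), Ighv11-2 (3.64 FPKM) and Igkv14-126 (2.51 FPKM). Single tumors weighed on these means, with 69.7 FPKM of Iglv1 in PD-1cKO replicate 8 and 37.9 FPKM of Ighv11-2 in WT replicate 1. Ighv11-2 and Igkv14-126 are known to pair in antibodies of B-1 cells that bind phosphatidylcholine. Their levels followed each other, with r of 0.93 over the 43 tumors, 0.87 in the antibody study and 0.91 in the tamoxifen study. These points share each tumor's overall immunoglobulin level, which differed widely among tumors. Both were above 0 in 27 tumors and both at 0 in 12. Ighv11-2 was 0.152 to 37.9 FPKM in WT tumors (median 7.22) and 0 to 17.3 FPKM in PD-1cKO tumors (median 3.59). Igkv14-126 was 0.781 to 22.95 FPKM (median 4.57) and 0 to 13.2 FPKM (median 1.34). WT replicate 1 was the highest for both, with 43.2% of the heavy variable sum in Ighv11-2 and 31.5% of the kappa variable sum in Igkv14-126. Ighv11-2 was the highest heavy variable gene in 6 of the 20 tamoxifen-study tumors, more than any other, while Igkv14-126 was the highest kappa variable gene in 2 and Igkv8-19 in 4. After 1 dose of PD-1 Ab, replicate 4 held 3.69 FPKM of Ighv11-2 and 6.11 FPKM of Igkv14-126, 49.9% and 51.6% of their sums.

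**Figure D4:**
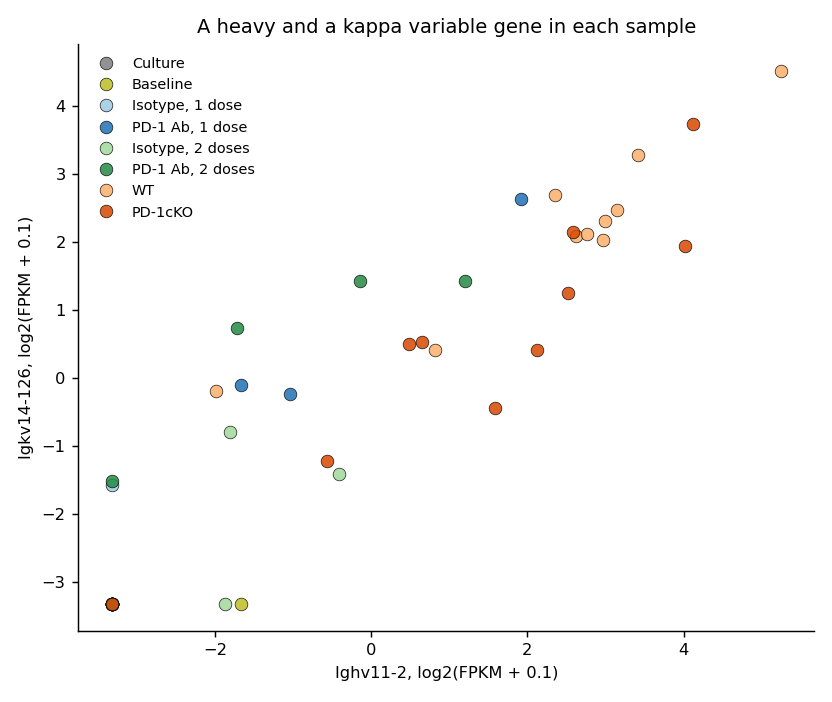
Level of the kappa variable gene Igkv14-126 against the heavy variable gene Ighv11-2, both as log2(FPKM + 0.1), with a point per sample colored by group. The points follow a single line with r of 0.93 over the 43 tumors, and WT replicate 1 lies highest at 37.9 and 22.95 FPKM.

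The germline coding sequences of these 3 variable genes are shown because these genes had the highest mean level of the heavy, kappa and lambda classes. The capitals mark the bases after the last in-frame cysteine codon, where the third hypervariable loop begins. The last part of each is given 5′ to 3′, from GENCODE transcripts on GRCm38. Ighv11-2 lies at chr12:114048241-114048812 on the minus strand, Igkv14-126 at chr6:67896172-67896642 on the plus strand and Iglv1 at chr16:19085017-19085500 on the minus strand. Each has 2 exons, for the leader and the variable domain. Iglv1 and its relative Iglv2 are alike enough that counting may have split their reads, so the level of either is uncertain.
Ighv11-2: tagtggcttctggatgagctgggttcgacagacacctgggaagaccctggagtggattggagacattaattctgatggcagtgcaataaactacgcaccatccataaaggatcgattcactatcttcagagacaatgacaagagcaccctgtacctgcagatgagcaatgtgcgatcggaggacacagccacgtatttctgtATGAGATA
Igkv14-126: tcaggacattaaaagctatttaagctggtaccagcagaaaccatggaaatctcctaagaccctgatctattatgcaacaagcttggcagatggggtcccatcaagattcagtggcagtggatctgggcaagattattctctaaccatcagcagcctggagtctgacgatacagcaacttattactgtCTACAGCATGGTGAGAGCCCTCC
Iglv1: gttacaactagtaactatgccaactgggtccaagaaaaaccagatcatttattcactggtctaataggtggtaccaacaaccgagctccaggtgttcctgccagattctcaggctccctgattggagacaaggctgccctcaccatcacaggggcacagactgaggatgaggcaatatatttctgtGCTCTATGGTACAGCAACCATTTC

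Other B-lineage genes were taken from lists of identity, receptor signaling and recruitment. Of 20 B-cell identity genes, 12 were tested after 2 doses and 4 rose (Cd22, Cd37, Pou2f2 and Cd72), where 5.03% of all genes were called higher, with a median difference of 1.19 against -0.04 for all genes. Cd22, an inhibitory receptor of B cells, was 1.21, 0.927, 0.390, 0.775 and 0.623 FPKM in isotype controls and 3.71, 10.4, 6.61, 5.32 and 1.77 FPKM after PD-1 Ab (difference 2.53 ± 0.42, limma adjusted p = 0.00241). Cd79a differed by 0.04 in the same comparison, and every treated tumor except replicate 2 lay within or below its control range. Which cells carried the Cd22 difference was not tested. In PD-1cKO tumors 9 were tested and 3 rose (Cd22, Cd37 and Ebf1), where 4.2% of all genes were called higher, with a median of 0.59 against -0.20. Cd72 was 19.5 ± 6.17 FPKM (SD) in PD-1cKO and 28.4 ± 7.25 FPKM in WT tumors (-0.57 ± 0.18, adjusted p = 0.0145). Its response to 2 doses exceeded its response to deletion by 1.58 ± 0.28 (adjusted p = 0.00674). Cd22 was 0.918 to 4.10 FPKM in WT and 3.60 to 15.9 FPKM in PD-1cKO tumors (1.83 ± 0.28, adjusted p = 0.000606). Cd37 is also carried by other leukocytes, Cd72 and Pou2f2 by macrophages, and Ebf1 by fat and stromal cells. The lists were drawn up with earlier results of these samples known and are not independent evidence.

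Few plasma-cell identity genes were called. Of 14 in that list, 11 were tested in each comparison and 2 rose after 2 doses and in PD-1cKO tumors, Slamf7 and Irf4, both also used by activated T cells, against 5.03% and 4.2% of all genes called higher. Slamf7 was 4.11 ± 1.52 FPKM (SD) in isotype controls and 24.5 ± 6.397 FPKM after PD-1 Ab (2.57 ± 0.26 on the log2 scale, limma adjusted p = 0.000806). At an adjusted p under 0.05, Fkbp11 was lower after 2 doses (-0.54, adjusted p = 0.0465). In PD-1cKO tumors, Creld2 (-0.50, adjusted p = 0.0273) and Sec11c (-0.44, adjusted p = 0.0144) were lower and Tnfrsf13b higher (0.46, adjusted p = 0.0309). The median difference of the list was 0.01 after 2 doses and 0.03 in PD-1cKO tumors. Sdc1, the plasma-cell surface protein CD138, was 34.2 to 35.6 FPKM in MC-38 cultures so its level in tumors cannot be assigned to plasma cells. Tnfrsf17, the plasma-cell receptor BCMA, was listed at 0 in all cultures and baseline tumors and was at most 1.13 FPKM in any tumor. Of 11 other immunoglobulin constant genes, 9 were tested after 2 doses and 0 were called, although Igha and Ighg3 had adjusted p of 0.0487 and 0.0168 with differences of 2.26 and 2.56. In PD-1cKO tumors 0 of the 8 tested were called.

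Some signaling and recruitment genes met the rule for a call. Of 17 B-cell receptor signaling genes, 16 were tested after 2 doses, and those that rose included Syk, Vav1, Pik3ap1 and Btk, kinases and adaptors that myeloid cells and T cells also use. Of 15 tested in PD-1cKO tumors, 3 rose (Grap, Syk and Blnk). Among recruitment and survival genes, 2 of 12 tested rose after 2 doses (Ccl21a and Ltb) and 3 of 7 in PD-1cKO tumors (Ltb, Cxcl12 and Tnfsf13), against 5.03% and 4.2% of all genes called higher. Ccl21a, a chemokine of lymphatic and lymph node stroma, was 4.08, 2.54, 4.21, 1.36 and 2.14 FPKM in isotype controls and 19.0, 37.1, 35.8, 50.2 and 4.21 FPKM after PD-1 Ab (3.02 ± 0.58, limma adjusted p = 0.00501). Its highest tumor was replicate 4, not replicate 2. Of 8 germinal center genes, 4 were tested and 0 were called in either comparison. All 10 T-cell markers rose in both comparisons, and their sum was 11.9 to 24.1 FPKM against 48.3 to 199 FPKM after 2 doses and 16.0 to 58.6 FPKM in WT against 40.5 to 192 FPKM in PD-1cKO tumors. The part of T cells in the shared genes was not tested. Adipose tissue markers, summed over 6 genes, were 15.6 to 131 FPKM in isotype controls and 40.5 to 871 FPKM after 2 doses, and 1 of 6 was called higher. Skeletal muscle markers were 0.491 to 1.15 FPKM and 2.14 to 74.8 FPKM in the same groups, and 2 of 6 (Myl1 and Acta1) were called higher. The part of either tissue was not tested. Of 8 tested markers of plasmacytoid dendritic cells, which also use Mzb1, Irf8 and Pacsin1 rose after 2 doses and Irf8 in PD-1cKO tumors.

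**Figure D5:**
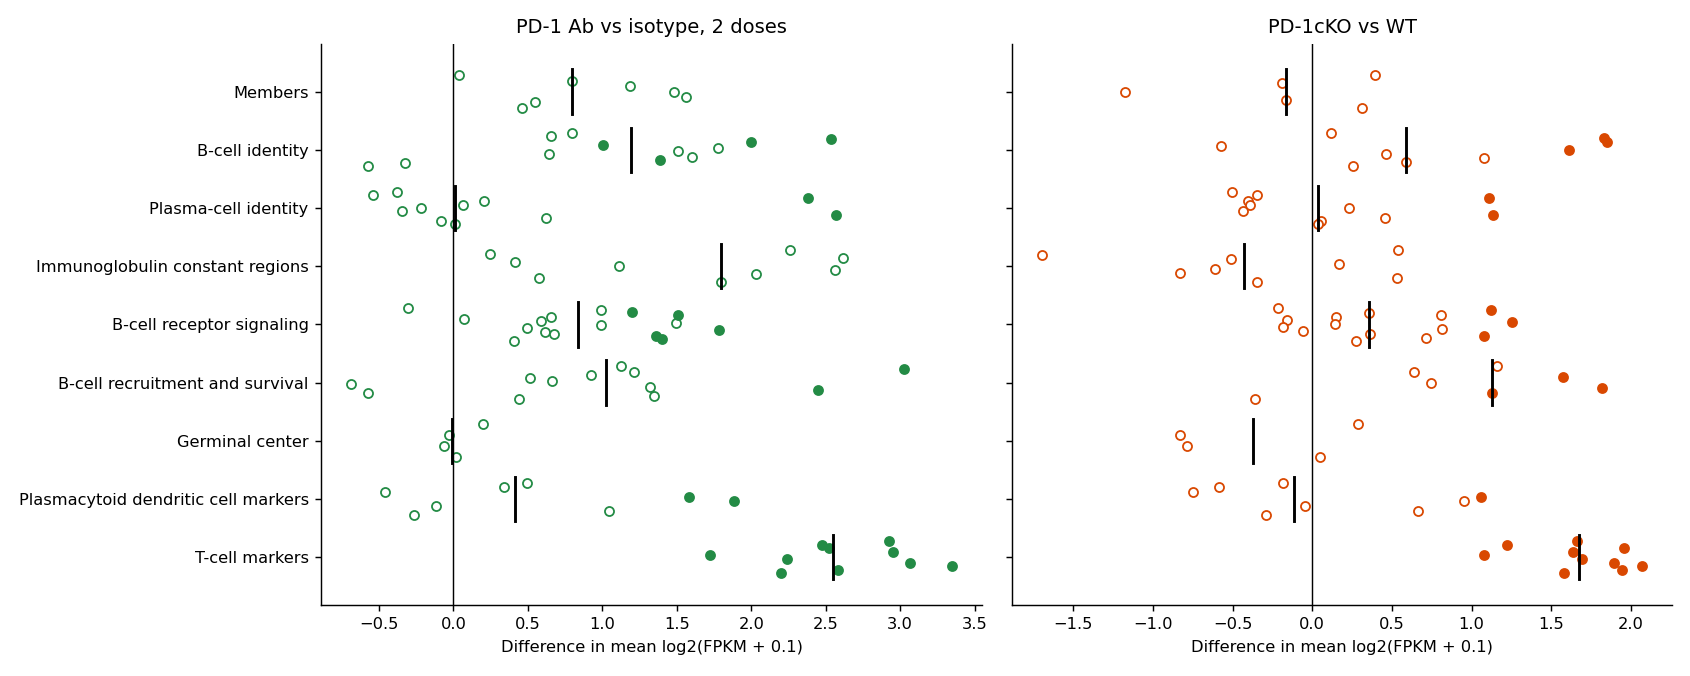
Difference in mean log2(FPKM + 0.1) for each tested gene of 9 lists, PD-1 Ab minus isotype after 2 doses (left) and PD-1cKO minus WT (right). Filled points met the rule for a call and black bars are list medians; all 10 T-cell markers are filled in both panels and none of the B-cell and plasma-cell members is.

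The genes whose pattern was most like that of Jchain across the 43 tumors, among 14859 with a mean of at least 0.5 FPKM, were Iglc2 (r of 0.90), Iglv1 (0.86), Iglv2 (0.85), Ear2, Igkv1-117, Ighv11-2, Mrc1 and Iglc1 (each 0.84). Ear2 and Mrc1 are genes of eosinophils or macrophages. Within the 20 antibody-study tumors Jchain had r of 0.74 with Ear2 and 0.78 with Mrc1. Within the 20 tamoxifen-study tumors these were 0.50 and 0.37. For the immunoglobulin genes of this list, r was 0.63 to 0.82 in the antibody study and 0.56 to 0.87 in the tamoxifen study. The genes most like Cd79a were led by Galm (0.66), Tnfrsf13b (0.65) and Abhd14b (0.65). Tnfrsf13b encodes TACI, a receptor of B cells and plasma cells. At these Cd79a levels, correlations of this size are descriptions of sparse counts.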

How the data were processed

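Total RNA depleted of ribosomal RNA was sequenced in paired ends from 43 MC-38 tumors and 3 cultures. The authors aligned reads to the mouse genome Mouse.B38 with the Omicsoft aligner, quantified Ensembl R86 genes in Array Studio, and deposited FPKM values for 48795 genes, with no read counts. No count model was used for this reason. Symbols were matched for 99.1% of identifiers, and 0 columns were left unmapped. Coordinates and sequences came from GENCODE M21 on GRCm38.

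Groups were taken from the labels. The labels give 28 days for the tamoxifen study, while the study's methods name an earlier day of excision for PD-1cKO tumors. FPKM values were set on a scale of log2(FPKM + 0.1). A gene was kept where the mean of 1 of the groups reached 0.5 FPKM, and was tested with limma (eBayes with trend) on the samples of the groups compared. P-values were adjusted over all tested genes by the Benjamini-Hochberg method, and a call needed an adjusted p under 0.01 and 2-fold. Two-sided permutation tests over samples were exact, or used 100000 resamples for 10 against 10 tumors. A count of fragments was implied from FPKM steps, with a tolerance of 0.1 fragments, and intervals were not given for it.

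The text names the 8 genes, listed genes that met the rule for a call, the 8 genes most like Cd79a and Jchain, and the variable genes with the highest mean; other names were chosen after their values were seen. The members and lists were chosen with earlier results of these data known. Alternatives covered the pseudocount, the filter, scaling, all 8 groups in 1 fit, array weights, no trend, the replicate number as a block, identifier runs and each sample left out. Some listed genes are not reported here. Scripts were tested on simulated data. Python 3.11.15 with numpy 2.4.6, pandas 2.3.3, scipy 1.17.1 and matplotlib 3.10.9, and R 4.3.3 with limma 3.58.1 were used.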

Additional observations from a re-analysis of the deposited data

Results flagged for a closer look

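In 12 of 48 gene and group combinations with 4 to 10 samples, the highest or lowest tumor stood apart from the rest by Dixon's criterion. Its limits are set for about 1 in 20 groups of normally distributed values. The criterion was applied here to FPKM, not to log2 values, and the genes share tumors. The 12 therefore cannot be set against that rate. Replicate 2 of the PD-1 Ab 2-dose tumors was the high value for 5 genes, at 6.10 FPKM for Cd79a, 2.70 FPKM for Ms4a1, 212 FPKM for Ighm, 184 FPKM for Igkc and 31.1 FPKM for Jchain. In isotype controls after 2 doses, replicate 1 stood apart for Ms4a1 at 0.569 FPKM and for Mzb1 at 0.462 FPKM.

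In the tamoxifen study, Cd79a stood apart in WT replicate 2 at 0.531 FPKM and in PD-1cKO replicate 4 at 0.823 FPKM, and Ms4a1 in WT replicate 5 at 0.134 FPKM. Among isotype controls after 1 dose, Pax5 was high in replicate 4 at 0.328 FPKM. Mzb1 was listed at 0 in replicate 1 of that group, the library rich in mitochondrial RNA.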

How the results depend on the processing

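Of 869 values for the 37 tested differences of the 8 genes under alternatives, 832 kept their direction and side of the threshold, 16 fell below it, 2 passed it and 19 reversed, the last in 8 differences. The number of the 8 genes called in PD-1cKO tumors was 1 with array weights against 0. In isotype tumors against culture it was 3 with log2(FPKM + 1) and 3 with a filter at 1 FPKM, 4 with all 8 groups in 1 fit and 6 with no filter, against 5. In baseline against isotype tumors it was 0 with log2(FPKM + 0.01), with no filter, with all 8 groups in 1 fit and without trend, 2 with array weights, and 0 to 1 when a tumor was left out, against 1. After 2 doses, Cd79a was -0.0532 with log2(FPKM + 0.01), -0.0129 with upper-quartile scaling, -0.24 with array weights and -0.69 to 0.48 when a tumor was left out. Mzb1 was -0.45 with log2(FPKM + 0.01) and -0.27 to 0.98 when a tumor was left out, and Ms4a1 -0.29 to 1.00. In PD-1cKO tumors, Jchain was 0.0034 with upper-quartile scaling, 0.11 with identifier runs as a term and -0.49 to 0.17 when a tumor was left out, Ighm -0.46 to 0.14, and Mzb1 -0.50 with array weights. For the response to 2 doses minus that to 1 dose, Jchain was 0.0237 with log2(FPKM + 1) and Ighm -0.35 to 0.77 when a tumor was left out. The cause was not tested.

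Replicate numbers did not pair the samples, since deviations of same-numbered samples had r of -0.22 to 0.15. With the replicate number as a block, 0 of the 8 genes were called in baseline against isotype tumors, and all genes called fell from 799 to 316 after 2 doses and from 89 to 0 at baseline. Over all genes, calls after 2 doses ranged from 316 to 1773 and from 375 to 1534 when a tumor was left out, against 799. In PD-1cKO tumors they ranged from 0 with identifier runs as a term to 1581, and from 743 to 1871 when a tumor was left out, against 1217. Against baseline they ranged from 0 to 398 and from 13 to 166, against 89. After 1 dose they reached 22 with array weights and 7 when a tumor was left out, and between isotype groups 38 with all 8 groups in 1 fit, both against 0. For 2 doses against deletion they ranged from 1 to 603 and from 2 to 55, against 15, and for 2 doses against 1 dose from 0 to 506. Low levels limit Cd79a, Ms4a1, Pax5 and Mzb1, which few fragments carried.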
